A study of Mus musculus with 3 samples.

Results

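Kruppel-like factors are zinc finger transcription factors, and 8 of them, *Klf2*, *Klf3*, *Klf4*, *Klf5*, *Klf6*, *Klf7*, *Klf9* and *Klf13*, were followed across the cell lineages of developing mouse back skin. These 8 genes were taken by name from the 19165 genes of the deposited single-cell table. No cut on measured values was applied, but earlier results of these data were known when they were chosen. Dorsal skin of C57BL/6 mice was taken at embryonic stages E13.5 and E16.5 and on the day of birth (P0), which the study treats as the induction, organogenesis and cytodifferentiation stages of hair follicle formation. Male animals of a stage were pooled and made into 1 droplet-based 3' library, so each stage is 1 sample with no replicate. The E13.5 and E16.5 skin was dissociated in trypsin and the P0 skin in collagenase IV, so stage and library cannot be told apart at any step, and digestion also changes with them at P0.

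All members of the family bind GC-rich or CACCC-type DNA through 3 zinc fingers at the carboxyl end, and they differ in the part of the protein that recruits partners. *Klf2* and *Klf4* are best known as factors of quiescent, flow-exposed endothelium, and *Klf4* is also needed for the barrier of the epidermis. *Klf5*, *Klf6* and *Klf7* are mostly activators of proliferating or injured cells, *Klf3* is a repressor that works through CtBP, and *Klf9* and *Klf13* recruit Sin3 corepressors, with *Klf9* being a well-known target of glucocorticoid and thyroid hormone.

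The libraries of E13.5, E16.5 and P0 held 5962, 5208 and 5065 cells, with medians of 7066.5, 11021 and 6797 UMIs per cell. Cells were clustered without any *Klf* or *Sp* gene and named only from fixed markers of other genes. In stage order 1068 (17.9%), 229 (4.40%) and 315 (6.22%) cells in mixed clusters were left out. Mixed clusters had more markers of another class than of their own among their 10 leading genes. Erythroid markers were not counted in most of these checks. The cells kept included 2106, 3291 and 2641 dermal-like, 413, 877 and 1476 epithelial-like, 255, 276 and 237 endothelial-like and 300, 188 and 66 immune-like cells in stage order. The suffix is dropped below. The lineages carried their defining markers, as the summed epithelial markers reached 14338 counts per 1000000 UMIs (CPM) in E16.5 epithelial cells against at most 542 in any other lineage of at least 50 cells. Some lineages and some of the clusters kept also carried markers of another class. Clusters led by such markers against the rest of their lineage held many of the E13.5 cells kept. They held 634 of 2106 dermal, 195 of 413 epithelial, 153 of 255 endothelial, 166 of 300 immune and 208 of 371 muscle cells. The E13.5 epithelial cells held 2185 CPM of dermal markers against 9201 CPM in dermal cells. Erythroid markers reached 16122, 7924 and 7643 CPM in E13.5 endothelial, epithelial and immune cells, above the 3525, 4889 and 6811 CPM of their own markers. E16.5 pericytes held 5540 CPM of dermal markers beside 6746 CPM of their own. Cartilage or tendon cells of E13.5 held 8920 CPM of dermal markers and 660 CPM of their own, so they were near dermal cells in these markers. E13.5 erythroid and neural cells held 6274 and 3258 CPM of dermal markers, beside 84236 and 6169 CPM of their own. Schwann cells held 3688, 5349 and 9985 CPM of dermal markers in stage order, more than their 1861, 3838 and 4903 CPM of Schwann markers. P0 immune cells held 2677 CPM of epithelial markers. The part of this admixture in the values below was not tested. Barcodes shared between libraries numbered 44 (E13.5 and E16.5), 41 (E13.5 and P0) and 32 (E16.5 and P0).

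The promoters of 3 members are shown because these genes carried the largest differences from dermal cells described below. The sequences are from RefSeq on GRCm38.p6 and cover the 250 bases before the annotated start, written 5′ to 3′ on the strand of the gene, with capitals for a match on either strand to CACCC (the core of the Klf element), GGGCGG (the GC box) or CTANNNNTAG (the MEF2 consensus). *Klf2* lies at chr8:72318812-72319061 (plus strand), *Klf4* at chr4:55532476-55532725 (minus strand) and *Klf9* at chr19:23140976-23141225 (plus strand).
Klf2: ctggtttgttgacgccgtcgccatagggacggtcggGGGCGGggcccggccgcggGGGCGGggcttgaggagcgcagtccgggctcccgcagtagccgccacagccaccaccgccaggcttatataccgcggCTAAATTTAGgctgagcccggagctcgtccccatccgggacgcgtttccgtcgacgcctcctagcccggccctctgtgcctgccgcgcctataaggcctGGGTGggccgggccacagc
Klf4: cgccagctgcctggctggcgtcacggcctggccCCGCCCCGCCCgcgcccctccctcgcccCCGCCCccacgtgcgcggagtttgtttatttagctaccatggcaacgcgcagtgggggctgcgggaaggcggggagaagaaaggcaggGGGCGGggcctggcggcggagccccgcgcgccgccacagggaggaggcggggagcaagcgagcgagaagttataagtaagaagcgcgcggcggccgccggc
Klf9: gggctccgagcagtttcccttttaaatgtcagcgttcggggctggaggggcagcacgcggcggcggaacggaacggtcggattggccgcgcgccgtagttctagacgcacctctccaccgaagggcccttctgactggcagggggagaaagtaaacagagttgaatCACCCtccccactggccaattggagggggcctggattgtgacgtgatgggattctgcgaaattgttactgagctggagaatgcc
The *Klf2* window held a MEF2 match that began 118 bases before the start, a sequence found in 3.20% of 32851 promoters of the same length. It also held 2 GC boxes and 1 CACCC match. The *Klf4* window held 4 GC boxes, which occurred at least once in 32.7% of promoters, and the *Klf9* window held 1 CACCC match, which occurred in 52.0%. These matches describe the letters of the windows and are not measured binding sites. In all, 7 of the 8 members had a promoter entry.

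*Klf2* was highest in endothelial cells at every stage, followed by immune cells. Its level is given as CPM, the UMIs of the gene summed over the cells of a group per 1000000 UMIs of that group, with an exact Poisson 95% interval that covers counting error only. In endothelial cells it stood at 143 CPM (129 to 157), 291 CPM (276 to 307) and 1095 CPM (1056 to 1135) in stage order. Epithelial cells held 7.10, 8.61 and 40.6 CPM and dermal cells 28.4, 38.2 and 71.2 CPM. Endothelial cells ranked first and immune cells second in all 3 libraries, with intervals that did not overlap, while the lowest lineages could not be ordered. The highest lineage exceeded the lowest 20.2, 33.8 and 42.5 times in stage order. With every cell thinned to 3500 UMIs, 28.6%, 42.0% and 75.1% of endothelial cells had a *Klf2* UMI, against 3.63%, 3.42% and 9.42% of epithelial cells.

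Within the immune lineage *Klf2* was low in mast cells and higher in macrophages and in some clusters that were not named. Macrophages held 155, 268 and 662 CPM in stage order, with only 21 cells at P0, and 74 of the 131 at E13.5 lay in a cluster with globin genes among its leading genes, at 105 CPM. Mast cells held 24 CPM at E13.5 and 38.5 CPM at E16.5. The other E16.5 clusters were close to macrophages, with 213 CPM (171 to 263) in 41 cells led by *Mcpt8*, *S100a8* and *Ly6c2*, and 263 CPM (213 to 321) in 24 dividing cells. At E13.5, 24 cells led by *S100a9*, *Cd74* and *Camp* held 170 CPM (130 to 219), whereas 70 and 22 cells led by erythroid or neural genes held 14.5 and 18.1 CPM. *Klf3* was also low in mast cells, with 4.36 CPM at E13.5, from 2 UMIs, against 94.7 CPM in macrophages.

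*Klf4* is a factor of both vessel wall and epidermal barrier, and its leading lineage differed by library. Dermal cells held 69.0, 104.5 and 166 CPM, epithelial cells 54.9, 179 and 177 CPM and endothelial cells 23.4, 62.5 and 238 CPM. At E13.5 the dermal interval overlapped that of the next lineage, the cartilage or tendon cells. Epithelial cells were highest at E16.5 and endothelial cells at P0. Pericytes, the mural cells of small vessels, held 17.3 CPM (11.8 to 24.4) and 10.8 CPM (6.05 to 17.8) at E16.5 and P0. These values overlapped those of Schwann cells at E16.5, at 30.4 CPM, and of melanocytes at P0, at 17.8 CPM, so the lowest lineage could not be told.

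*Klf5*, a factor of epithelial growth, was highest in pooled epithelial cells at every stage, with 96.7 CPM (86.9 to 107), 144 CPM (137 to 150) and 139 CPM (134 to 144). Endothelial cells held 2.45, 4.43 and 6.63 CPM, from 7, 21 and 18 UMIs. Dermal *Klf5* stood at 7.16 and 16.0 CPM in the embryo and at 47.6 CPM at P0. The clusters of the 2 lineages overlapped at P0. Epithelial clusters ran from 23.4 to 457 CPM with a median of 53.9 CPM. Dermal clusters ran from 0 to 118 CPM with a median of 39.4 CPM. After thinning, 24%, 36.4% and 29.8% of epithelial cells had a *Klf5* UMI against 1.57%, 2.17% and 2.53% of endothelial cells.

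*Klf6*, an early-response factor of many tissues, was spread over all lineages, from 46.5 CPM in E16.5 epithelium to 505 CPM (468 to 543) in P0 pericytes. Dermal cells led at E13.5 with 229 CPM, immune cells and pericytes overlapped at the top at E16.5 with 249.9 and 229 CPM, and pericytes led at P0. *Klf7*, a factor studied mostly in neurons, was highest in endothelial cells at E13.5 and E16.5 with 97.5 and 125 CPM. At P0 Schwann cells with 129 CPM (92.3 to 175) and endothelial cells with 114 CPM (102 to 128) could not be ordered. The *Klf7* gene overlaps the long non-coding RNA Gm26649 on the opposite strand, which the table lists as a separate row.

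*Klf3*, the CtBP-binding repressor, varied less between lineages than *Klf2*, *Klf4*, *Klf5*, *Klf6* and *Klf7* in each library, the highest exceeding the lowest 2.72, 3.30 and 3.73 times in stage order. The same ratio for *Klf13* was 3.87, 2.24 and 3.32. Epithelial cells held 77.9, 105 and 59.5 CPM, endothelial cells 68.5, 78.7 and 93.5 CPM and dermal cells 56.0, 37.5 and 47.7 CPM. The first 7 of the 9 lineages at E13.5 formed a chain of overlapping intervals, and at P0 endothelial cells stood alone at the top.

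*Klf9* was low throughout the E13.5 library and was a dermal and pericyte gene at birth. At E13.5 no lineage of at least 50 cells exceeded 13.3 CPM, the Schwann level, and each overlapped its neighbour in the order. Dermal cells went from 5.44 CPM (4.45 to 6.59) to 44.2 CPM (42.1 to 46.4) and 132 CPM (126 to 137). Pericytes held 29.2 CPM at E16.5 and went to 208 CPM (184 to 233) at birth. Immune cells stayed at 0.754, 4.55 and 5.98 CPM, from 2, 9 and 4 UMIs.

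*Klf13*, first described in lymphocytes, was highest in Schwann cells among the lineages of at least 50 cells in all 3 libraries, with 111 CPM (95.5 to 128), 238 CPM (203 to 276) and 568 CPM (488 to 657). The E13.5 value overlapped that of endothelial cells at 102 CPM. Epithelial *Klf13* stood at 28.7 CPM at E13.5, the lowest of 9 lineages, and at 191 and 257 CPM in the later libraries.

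Blood and lymphatic endothelium could be told apart at E13.5, with 87 and 141 cells. Blood endothelial cells held 168 CPM (145.5 to 194) of *Klf2* and 139.6 CPM (119 to 163) of *Klf7*, and lymphatic cells 127 CPM (109.8 to 147) and 72.6 CPM (59.6 to 87.6). *Klf4* stood at 32.3 CPM (22.7 to 44.5) against 12.0 CPM (7.10 to 18.9). The *Klf7* and *Klf4* intervals were apart and those of *Klf2* overlapped. However, 39 of these blood and 60 and 27 of these lymphatic cells lay in clusters led by markers of another class. In the clusters without such markers, of 48 blood and 54 lymphatic cells, *Klf7* stood at 162 CPM (136 to 192) against 83.1 CPM (63.8 to 106) and *Klf2* at 196 CPM (167 to 229) against 111 CPM (88.4 to 137). There the *Klf4* intervals overlapped, at 28.1 CPM (17.8 to 42.1) against 13.2 CPM (6.32 to 24.3). At E16.5 a group of 43 lymphatic cells held 358 CPM (321 to 398) of *Klf6*, above the 169 CPM of all endothelial cells. Muscle cells, 371 in the E13.5 library, ranked last of 9 lineages for *Klf2*, *Klf4*, *Klf6* and *Klf7*, each time with an interval that overlapped the next lineage up. Of these cells 208 lay in clusters led by dermal or neural markers. A cluster of 119 cells led by dermal markers held the highest muscle *Klf4*, *Klf6* and *Klf7*, with 30.2, 122 and 39.2 CPM.

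**Figure D1:**
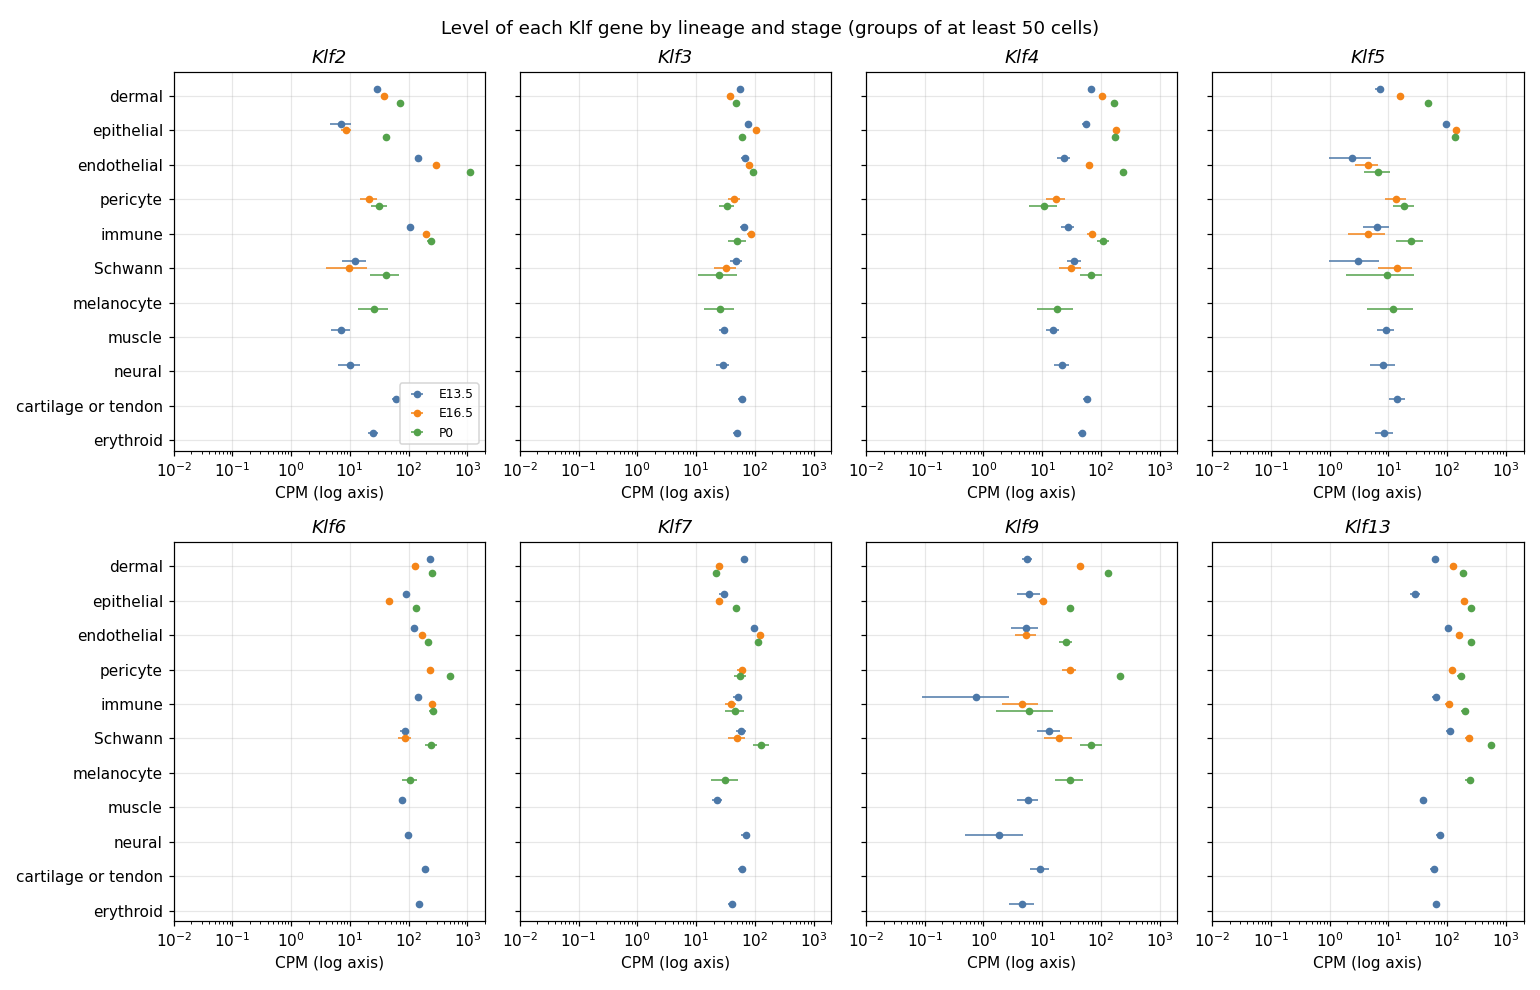
Level of each of the 8 genes in CPM (log axis) in every lineage of at least 50 cells, with exact Poisson 95% intervals as bars and the stage as colour. *Klf2* is highest in endothelial cells and *Klf5* in epithelial cells at each stage, *Klf13* is highest in Schwann cells, and *Klf9* lies at or below 13.3 CPM in every E13.5 lineage.

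Lineages of 1 library were then compared as the log2 difference of CPM + 10, with a counting interval. A gene with at least 50 UMIs in both groups together was called where this difference reached 1 in either direction, since 1 library per stage allows no test. The comparisons of a stage share their dermal cells.

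Endothelial cells held more *Klf2* than dermal cells at each stage, and more *Klf7* and less *Klf9* at E16.5 and P0. At E13.5 *Klf2* was higher by 1.99 (1.83 to 2.15) and *Klf4* lower by a difference of -1.24, so 2 of the 8 members were called, against 9.61% of all genes measured. At E16.5 there were 3 calls against 12.9%, *Klf2* at 2.64 (2.55 to 2.74), *Klf7* at 1.96 (1.83 to 2.08) and *Klf9* at -1.83. At P0 there were 4 calls against 15.0%, *Klf2* at 3.77 (3.68 to 3.85), *Klf7* at 1.95, *Klf5* at -1.79 and *Klf9* at -2.02. *Klf4*, which was lower in endothelial than dermal cells at E13.5, had a difference of 0.49 (0.37 to 0.61) at P0. At E13.5, 153 of 255 endothelial and 634 of 2106 dermal cells lay in clusters led by markers of another class. With these left out of both groups *Klf2* was at 2.08 and *Klf4* at -1.35. Genes known from quiescent and flow-exposed endothelium, a fixed list of 14, were mostly higher in endothelial than in dermal cells. Of those measured, 9 of 11, 12 of 14 and 12 of 13 were called higher in endothelial cells in stage order and 1 was called lower each time, with list medians of 1.92, 2.21 and 2.51 against -0.11, -0.04 and -0.02 over all genes. At P0 the largest were *Aqp1*, a water channel, at 4.07, *S1pr1*, a sphingosine phosphate receptor, at 3.54, and *Timp3*, a protease inhibitor, at 3.47. *Vcam1*, an adhesion molecule of inflamed endothelium, was the gene called lower at E13.5 and E16.5, at -2.49 and -3.19. It was also among the leading genes of 335 E16.5 dermal cells against cells outside the dermis. Since the endothelial cells were named by endothelial markers, the list values do not tell quiescence or flow response apart from endothelial identity.

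Immune cells shared the high *Klf2* and the low *Klf9*. *Klf2* was higher than in dermal cells by 1.57 (1.39 to 1.75), 2.13 (1.98 to 2.28) and 1.62 (1.38 to 1.84) in stage order. The other calls were *Klf4* at -1.09 at E13.5, *Klf3* at 1.03 and *Klf9* at -1.90 at E16.5, and *Klf9* at -3.15 at P0. These make 2, 3 and 2 calls among the 8 members, beside 12.7%, 18.5% and 16.49% of all genes. *Klf2* at P0 came to 0.58 among cells with at least 2500 genes, *Klf3* at E16.5 came to 0.97 and *Klf4* at E13.5 to -0.94 with mixed clusters kept.

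Epithelial cells carried more *Klf5* than dermal cells at all 3 stages, by 2.64 (2.47 to 2.79), 2.56 (2.47 to 2.65) and 1.37 (1.28 to 1.47). At E13.5 *Klf2* at -1.17 and *Klf6* at -1.25 were also called, which makes 3 of 8 members against 9.02% of genes. With mixed clusters kept *Klf2* came to -0.57. At E16.5 the calls were 5 against 12.4%, adding *Klf3* at 1.28 and *Klf9* at -1.41 to *Klf5*, *Klf2* at -1.37 and *Klf6* at -1.28. At P0 only *Klf5* and *Klf9*, at -1.83, were called, 2 of 8 against 13.3%. *Klf5* at P0 depended on which cells were kept, since among cells with a dissociation share at or below the library median it was 0.55. In these cells *Klf2* at -1.15, *Klf6* at -1.35, *Klf7* at 1.04 and *Klf9* at -1.68 passed the threshold, and *Klf4* was at -0.77. *Klf4* differed by -0.28 (-0.47 to -0.10), 0.73 (0.66 to 0.79) and 0.08 (0.02 to 0.15), under the threshold at each stage. At E13.5, 195 of 413 epithelial and 634 of 2106 dermal cells lay in clusters led by markers of another class. With these left out of both groups *Klf5* was at 2.90 and *Klf6* at -1.56.

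**Figure D2:**
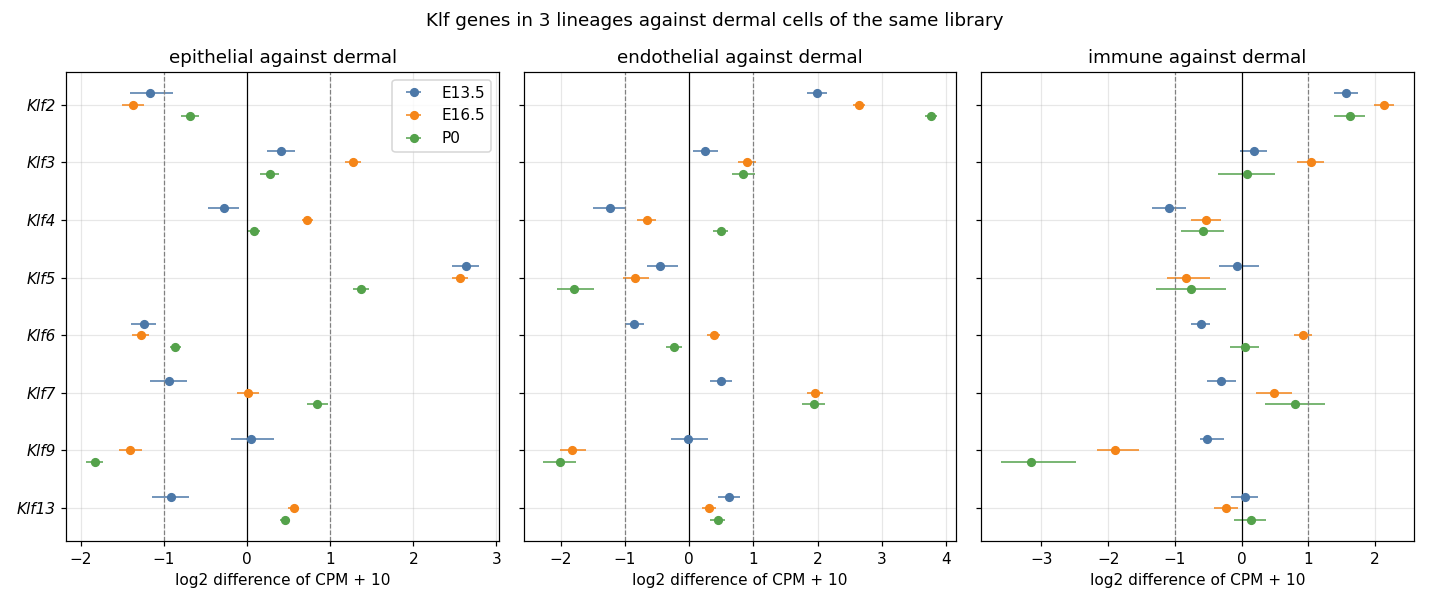
Log2 difference of CPM + 10 between epithelial, endothelial or immune cells and dermal cells of the same library for each gene, with 95% counting intervals as bars, stages as colours and dashed lines at -1 and 1. *Klf2* lies right of 1 in endothelial and immune cells at each stage and *Klf5* right of 1 in epithelial cells.

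In the P0 epithelium 309 basal, 137 suprabasal, 223 matrix or placode and 127 root sheath or shaft cells could be named among 1476. Basal and suprabasal cells form the dividing and the differentiating layers of the epidermis, and root sheath or shaft cells the differentiated parts of the follicle. The matrix is the proliferating bulb of the follicle and the placode its first epithelial thickening. A single marker list named both, so they were not told apart, and the 223 cells are called matrix below. The remaining 6 clusters, which include 112 cells led by *Krt79*, were not named and their *Klf4* ran from 38.6 to 147 CPM. *Klf4* stood at 365 CPM (346 to 384) in basal and 545 CPM (511 to 581) in suprabasal cells, against 49 CPM (40.8 to 58.3) in matrix and 74.5 CPM (60.9 to 90.2) in root sheath or shaft cells. *Klf5* followed with 245 and 457 CPM in the epidermal groups and 28.2 and 70.9 CPM in the follicle groups. *Klf3* stood at 116 and 176 CPM in the epidermis and at 7.33 and 35.1 CPM in the follicle. *Klf2* held 96.4 and 122 CPM in the epidermis, 12.3 CPM in matrix and 2.15 CPM, from 3 UMIs, in root sheath or shaft cells. *Klf13* ran the other way, with 167 and 249 CPM in the epidermis and 299 and 304 CPM in the follicle. *Klf7* was at 41.0, 31.9, 41.7 and 58.7 CPM over the same 4 groups.

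Matrix cells were compared with basal cells after these levels had been seen. *Klf3* at -2.86 (-3.14 to -2.53), *Klf5* at -2.74, *Klf4* at -2.67 (-2.89 to -2.44), *Klf2* at -2.25 (-2.55 to -1.93) and *Klf6* at -1.38 (-1.59 to -1.16) were called lower in matrix, 5 of 8 members against 7.70% of 8265 genes. The median of the 8 members was -1.81 and that of all genes 0.10. *Klf13* differed by 0.80, *Klf9* by -0.31 and *Klf7* by 0.02. *Sp5*, a Wnt-induced relative of the family, was higher in matrix by 3.88. The stress and immediate-early genes that tissue dissociation induces, a fixed list of 20, summed to 10618 CPM in basal and 11503 CPM in suprabasal cells against 4555 CPM in matrix and 4116 CPM in root sheath or shaft cells. Among cells at or below the median share of these genes in the library, which left 65 basal and 171 matrix cells, *Klf3*, *Klf5* and *Klf4* still differed by -2.45, -2.73 and -2.13, whereas *Klf2* and *Klf6* came to -0.93 and -0.69.

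Suprabasal cells held more *Klf5*, *Klf6* and *Klf4* than basal cells in the E13.5 and P0 libraries. At E13.5 the groups had 53 and 69 cells. Of the 69 cells named basal, 55 were led by *Dkk4*, *Gjb6* and *Irx4*. The matrix or placode marker *Lef1* and the basal marker *Cxcl14* were both among their leading genes, so basal and placode cells were not told apart there. The other 14 had the neural marker *Tubb3* among their leading genes. Against this group suprabasal *Klf5* was higher by 1.85 (1.34 to 2.38), *Klf4* by 1.48 (0.83 to 2.11) and *Klf6* by 1.13 (0.44 to 1.80). These are 3 of the 4 members with enough UMIs, against 7.54% of genes. With mixed clusters kept *Klf4* came to 0.82 and *Klf6* to 0.28. At P0 the same genes differed by 0.87 (0.74 to 1.01), 0.57 (0.45 to 0.68) and 0.82 (0.67 to 0.97), and 0 of 8 members reached the threshold against 7.98% of genes. At E16.5 no basal group was found, and the 103 suprabasal cells were set against the other epithelial cells. Their leading genes also held *Cnfn* and the periderm markers *Krt6a* and *Krt4*. There *Klf6* at 1.47 (1.25 to 1.69), *Klf5* at 1.13 (0.99 to 1.28) and *Klf3* at 1.06 (0.89 to 1.22) were called, 3 of 8 members against 5.09%. At a finer clustering, Leiden resolution 2, *Klf6* turned to -0.82, *Klf3* came to 0.21 and *Klf5* to 0.91. The dissociation list summed to 4827 CPM in the suprabasal and 3803 CPM in the other epithelial cells. Among cells of low dissociation share, 49 of them suprabasal, *Klf6* came to 0.49 and *Klf3* to 0.62, while *Klf5* was at 1.04. Suprabasal cells were named by differentiation markers such as *Krt1* and *Krt10*, so high genes of the cornified layer are tied to that naming. Of the late differentiation list, 7 of 8 measured genes were called higher in P0 suprabasal cells and 8 of 8 at E16.5, at list medians of 2.27 and 3.53. The largest at P0 were *Elovl4*, a lipid elongase of the barrier, at 4.25, *Sprr1a*, an envelope precursor, at 3.46, and *Casp14* at 3.15.

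**Figure D3:**
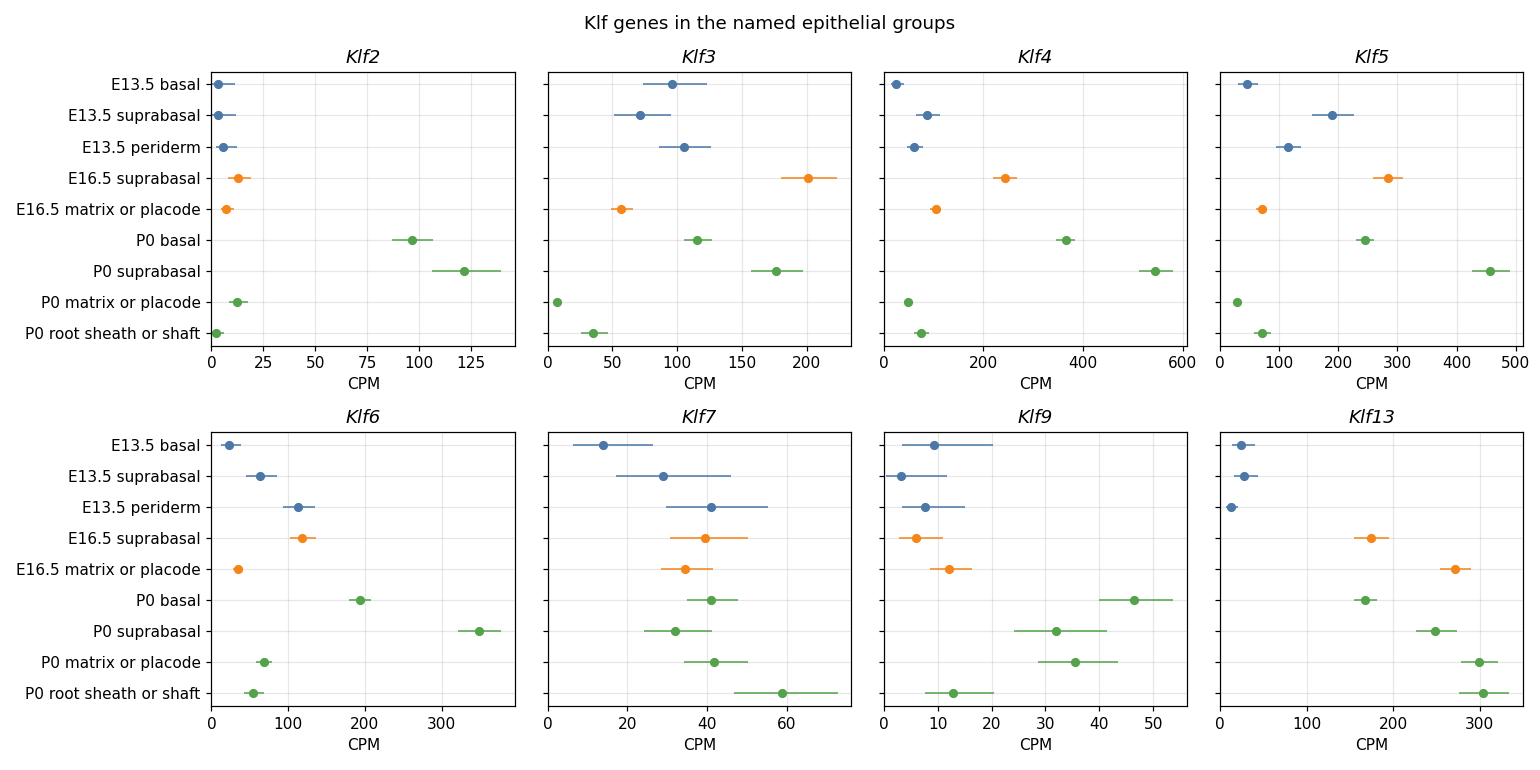
CPM of each gene (linear axis from 0) in the named epithelial groups, with exact Poisson 95% intervals as bars and the stage as colour. At P0 *Klf2*, *Klf3*, *Klf4*, *Klf5* and *Klf6* lie higher in basal and suprabasal than in matrix or placode and in root sheath or shaft cells. *Klf13* is lowest in basal cells at P0.

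Pericytes held less *Klf4* than dermal cells in both libraries where they were found. Against dermal cells *Klf4* differed by -2.07 (-2.39 to -1.73) at E16.5, the single call among 8 members beside 7.37% of genes. At P0 it was at -3.08 (-3.46 to -2.66), and *Klf7* at 1.04 (0.74 to 1.33) and *Klf5*, at the threshold on the low side (-1.38 to -0.61), were also called, 3 of 8 beside 10.3%. *Klf6* was at 0.80 (0.66 to 0.94) and 0.96 (0.84 to 1.07), under the threshold in both libraries. Among cells of low dissociation share only *Klf4*, at -2.32, was called at P0, with *Klf7* at 0.96 and *Klf5* at -0.73. The dissociation list summed to 9787 CPM in P0 pericytes and 7798 CPM in P0 dermal cells.

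Schwann cells gave different calls against dermal cells at each stage. At E13.5 *Klf6* at -1.31 was the single call of 8, beside 5.51% of genes. At E16.5 *Klf4* at -1.50 (-1.98 to -1.03) and *Klf2* at -1.29 (-1.80 to -0.69) were called, 2 of 8 beside 11.1%. At P0 *Klf7* at 2.10 (1.65 to 2.53) and *Klf13* at 1.57 (1.35 to 1.79) were higher and *Klf5* at -1.57 and *Klf4* at -1.16 lower, 4 of 8 beside 13.7%. *Klf13* differed by 0.72 (0.51 to 0.93) at E13.5 and 0.86 (0.64 to 1.07) at E16.5. The P0 group had only 51 cells, and among cells with at least 2500 genes *Klf5* came to -0.55, while *Klf4* came to -0.35 at a coarser clustering and to -0.99 without the clusters led by another class. Among cells of low dissociation share *Klf2* at E16.5 was at -0.82. The Schwann and pericyte comparisons were added after the levels had been seen.

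*Klf4* varied widely inside the dermis at each stage. Over 12 dermal clusters at E13.5 it ran from 1.33 to 320.0 CPM with a median of 28.7 CPM. The top was a cluster of 182 cells led, beside *Klf4* itself, by *Scg2*, *Adamts5*, *Gata6*, *Apod* and *Wnt2*. At E16.5 a cluster of 34 cells led by *Ly6a*, *Mfap5*, *Sema3c*, *Igfbp6* and *Pi16* held 887 CPM (799 to 982) of *Klf4* and 630.1 CPM (556 to 711) of *Klf2*, against medians over 15 clusters of 95.4 and 29.7 CPM. It also had the highest *Klf3* and *Klf7* of the E16.5 dermis, with 197 and 97.5 CPM. Its dissociation list summed to 4247 CPM, close to the 4223 CPM of all E16.5 dermal cells. At P0 the highest *Klf4*, 494 CPM (448 to 544), was in 137 cells led by *Sost*, *Dkk1* and *Tagln*, and the lowest, 12.4 CPM (7.59 to 19.2), in 312 cells led by *Kcnk2*, *Meox2*, *Wnt16* and *Prss23*. P0 cells led by *Clec3b*, *Mfap5*, *Igfbp6* and *Ly6a*, 245 in number, held the highest *Klf5* and *Klf9* of the P0 dermis, with 118 and 239 CPM. Their dissociation list summed to 10359.8 CPM, above the 7798 CPM of all P0 dermal cells. *Klf6* was far more even at E13.5, from 119 to 311 CPM over its 12 clusters.

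The dermal condensate (DC) and the dermal papilla (DP) it becomes are the mesenchymal cells that instruct the follicle, and at E16.5 they held more *Klf4* and *Klf13* than the pooled other dermal cells. The cells named DC at E16.5 joined 201 cells led by *Bmp3*, *Sox18* and *Sox2* and 231 cells with *Aqp1*, *Foxd1*, *Plk2* and *Wisp1* among their leading genes. Together they held 260.5 CPM (245 to 277) of *Klf4* and 269 CPM (253 to 286) of *Klf13*, against 86.0 and 109.6 CPM in the other dermal cells. The differences were 1.49 (1.40 to 1.59) and 1.22 (1.13 to 1.32), and *Klf2* was lower at -1.39 (-1.62 to -1.14) with 9.67 against 41.6 CPM. These were 3 calls among 8 members beside 5.02% of genes. In P0 DP cells 0 of 8 members reached the threshold beside 8.44% of genes. *Klf13* was just short of it (0.86 to 1.13) and *Klf4* was at 0.78 (0.63 to 0.93), or 0.48 among cells of low dissociation share. The highest *Klf4* of the dermis lay outside the cells named DC and DP at E16.5 and at P0, in the clusters at 887 and 494 CPM. The P0 value overlapped that of a DP cluster at 431 CPM (356 to 517). The P0 cluster at 494 CPM also had *Aqp1*, *Plk2* and *Wisp1* among its leading genes, like the 231 cells named DC at E16.5. Its place outside DP therefore depends on the naming. *Klf2* at P0 was uneven among the 3 DP clusters, with 55.3, 55.7 and 279 CPM, and the cluster at 279 CPM also had the highest dissociation list sum of the 3, 13814 CPM against 9641 and 10255 CPM. *Ctbp2*, a corepressor that binds *Klf3*, was higher in DP cells by 2.12, the single call among the 8 genes of the corepressor list there, whose median was 0.12 against 0.15 over all genes.

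**Figure D4:**
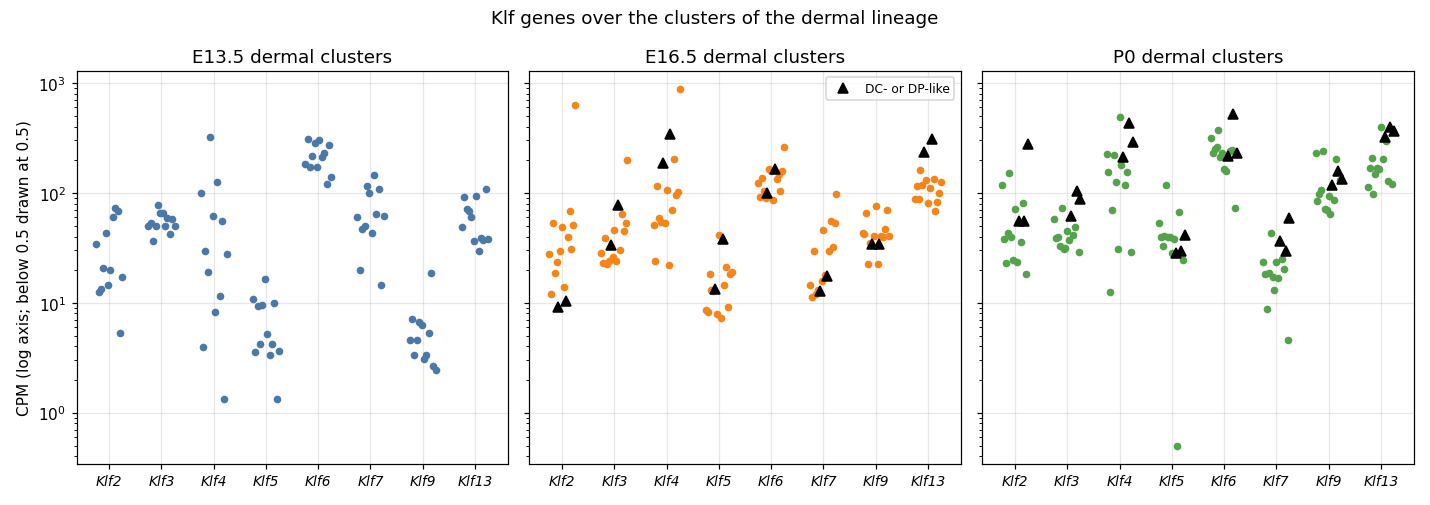
CPM of each gene (log axis, values below 0.5 drawn at 0.5) in every cluster of the dermal lineage, 1 panel per stage and 1 point per cluster, with triangles for DC or DP clusters. *Klf4* spreads from 1.33 to 320.0 CPM at E13.5, 1 E16.5 cluster stands above the others for *Klf2* and *Klf4*, and both E16.5 DC clusters lie below the other dermal clusters for *Klf2*.

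Adjacent stages were compared within a lineage, with DC and DP cells left out of the dermis. Both steps share the E16.5 library. In dermal cells *Klf9* was higher at E16.5 than at E13.5 by 1.84 (1.73 to 1.95) and higher at P0 than at E16.5 by 1.36 (1.27 to 1.44). *Klf7* was lower at E16.5 by -1.08 (-1.18 to -0.98), and *Klf5* was higher at P0 by 1.24 (1.13 to 1.35). These were 2 calls among 8 members at each step, beside 3.81% and 4.96% of genes. *Klf6* differed by -0.80 and then by 0.94, so its order of stages was high, low, high. Of the glucocorticoid response list, 4 of 11 measured genes were called higher at each step and none lower, at list medians of 0.69 and 0.48 against -0.09 and -0.13 over all genes, with *Mt1*, a metallothionein, at 1.62 and 1.80 and *Tsc22d3*, the leucine zipper GILZ, at 1.38 at the second step. *Dusp1*, at 1.39 and 2.77, is also in the dissociation list. Of the adipogenic list, 5 of 7 were called higher and 1 lower at E16.5, and 3 higher and 1 lower at P0, at list medians of 1.63 and -0.22. At P0 *Fabp4*, a lipid carrier, was at 4.97 and *Lpl*, lipoprotein lipase, at 2.37. A P0 cluster of 43 cells led by the adipocyte genes *Adipoq* and *Cfd* held 132 CPM (105 to 163) of *Klf9*, beside the 132 CPM of all P0 dermal cells.

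In the epithelium *Klf13* was higher at E16.5 than at E13.5 by 2.38 (2.16 to 2.59) and *Klf4* by 1.55 (1.37 to 1.73), 2 of 8 members beside 7.38% of genes. Without the E13.5 and E16.5 clusters led by another class they were 2.80 and 1.41. From E16.5 to P0 *Klf2* was higher by 1.44 (1.29 to 1.58) and *Klf6* by 1.36 (1.25 to 1.47), 2 of 8 beside 3.91%. *Klf4* and *Klf5* differed by -0.02 (-0.09 to 0.05) and -0.04 (-0.12 to 0.04) at this step. These values pool unlike clusters. Over the epithelial clusters *Klf4* ran from 75.5 to 250 CPM at E16.5 and from 38.0 to 545 CPM at P0. *Klf5* ran from 54.5 to 284 CPM and from 23.4 to 457 CPM. *Klf2* ran from 5.19 to 12.6 CPM and from 2.15 to 122 CPM. The part that the mix of epidermal and follicle cells has in these differences was not tested.

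In endothelial cells *Klf4* was higher at E16.5 by 1.12 (0.83 to 1.40), 1 call among the 6 members with enough UMIs beside 3.76% of genes, and by 0.58 after thinning. *Klf2* was just under the threshold at 0.98 (0.83 to 1.13). At P0 *Klf2* was higher than at E16.5 by 1.88 (1.79 to 1.97), *Klf4* by 1.77 (1.59 to 1.95) and *Klf9* by 1.20 (0.87 to 1.49), 3 of 7 members beside 5.69%. The P0 endothelium was not even. Clusters of 77, 52 and 37 cells held 1427, 1136 and 1056 CPM of *Klf2*, whereas 41 cells with *Aqp7* and *Btnl9* among their leading genes held 419.8 CPM (360.4 to 486) and also the least *Klf4*, 77.8 CPM. The dissociation list summed to 4743 CPM in these 41 cells and to between 6261 and 8080.5 CPM in the others.

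The dissociation list moved with the stages. It summed to 3080, 4223 and 7798 CPM in dermal cells, 4279, 3928 and 7051 CPM in epithelial cells and 3283, 3699 and 6839 CPM in endothelial cells in stage order. From E16.5 to P0 it had 11 of 20 genes called higher in dermal, 11 of 20 in epithelial and 12 of 19 in endothelial cells, with 1 called lower in dermal cells. Its medians were 1.21, 1.18 and 1.27, against -0.13, -0.05 and -0.14 over all genes. With each library restricted to cells at or below its median share of these genes, the P0 to E16.5 differences were 1.03 for dermal *Klf9*, 1.16 for dermal *Klf5*, 1.30 for endothelial *Klf2* and 1.50 for endothelial *Klf4*. Endothelial *Klf9* came to 0.92 and epithelial *Klf2* and *Klf6* to 0.32 and 0.65, under the threshold. Epithelial *Klf3*, *Klf4* and *Klf5* came to -1.32, -1.07 and -1.07 in these cells, which included 65 of the 309 basal cells of P0. Whether the digestion set these differences was not tested.

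**Figure D5:**
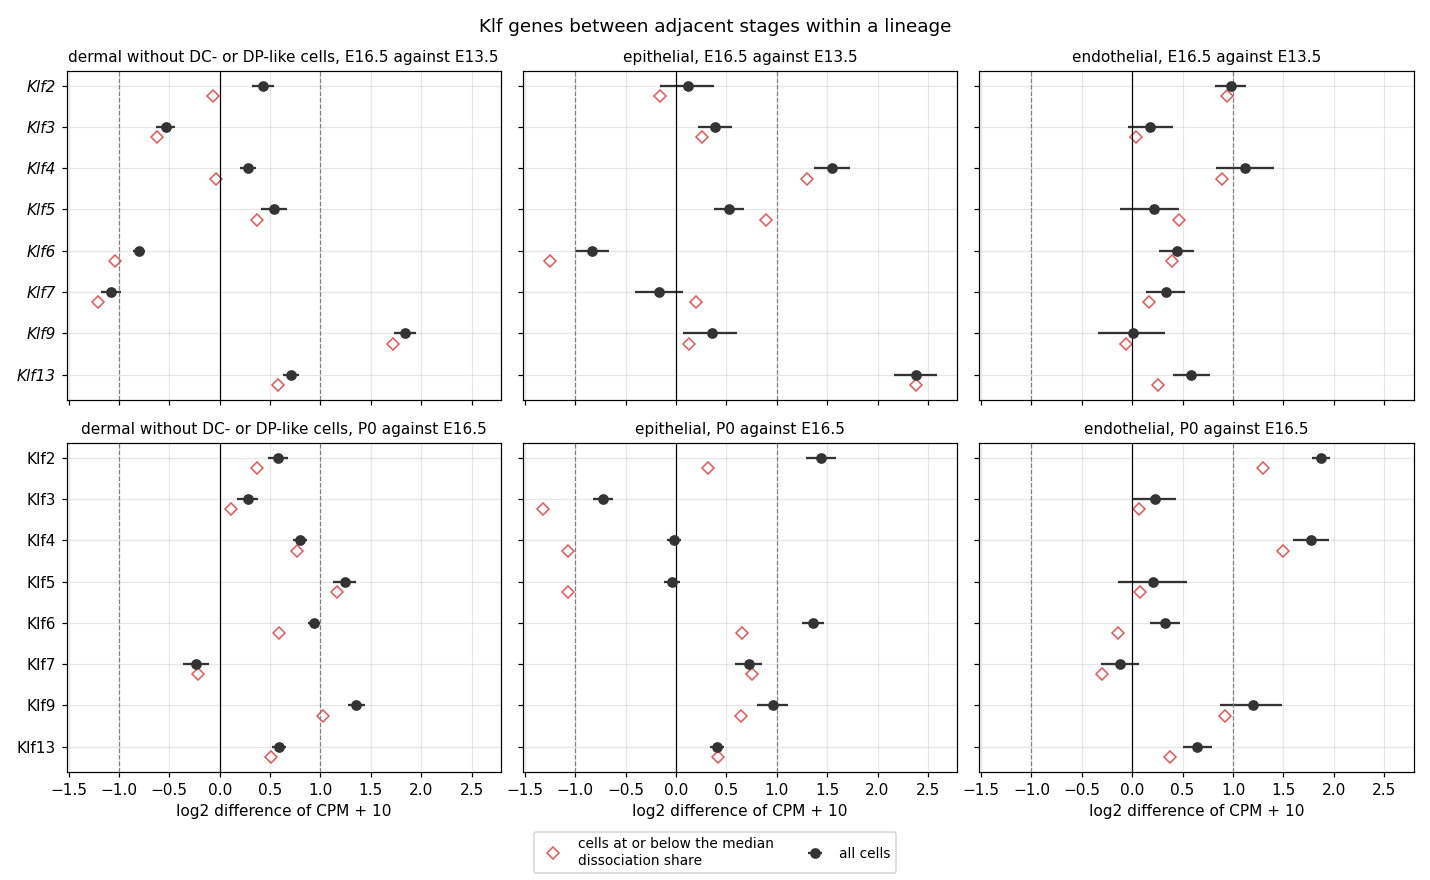
Log2 difference of CPM + 10 between adjacent stages in dermal cells without DC or DP cells, epithelial cells and endothelial cells. Filled points use all cells, with 95% counting intervals as bars, open diamonds use cells at or below the median dissociation share, and dashed lines mark -1 and 1. *Klf2* and *Klf4* in endothelial cells stay right of 1 from E16.5 to P0 in both, and epithelial *Klf2* does not.

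Of the 18 other Klf and Sp genes on a fixed list, 16 were in the table. They gave at most 2 calls in any of the 26 comparisons, beside 3.76% to 18.5% of all genes. This count is not read as a result about the family, and the genes that follow are single examples. *Klf10*, a TGF-beta inducible member, was higher in endothelial than dermal cells by 0.99, 1.04 and 1.64 in stage order, and *Sp5* was lower by -2.25 at E13.5 and -1.71 at E16.5. *Sp6*, known from tooth and skin epithelium, was higher in E13.5 epithelium by 2.17, *Klf15* in E16.5 epithelium by 1.32 and *Sp7*, an osteoblast factor, in DC cells by 1.39. Dermal *Sp5* was lower at each later stage, by -1.32 and then by -1.82.

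The genes whose levels followed each member most closely were ranked by Pearson correlation of log2 of CPM + 10 over the 22 lineage groups of at least 50 cells. These groups come from 3 libraries and share depth and digestion, so r is a description of 12173 genes and not a test. For *Klf2* they were *Adam15*, *Entpd1* and *Tpst2*, each at 0.92. For *Klf5* they were *Wnt10a* (0.94), *Cds1* (0.92) and *Tfap2c* (0.92), and for *Klf9* *Hspb6* (0.94), *Cyr61* (0.91) and *Mrgprf* (0.90). The links were weaker for *Klf13* with *Hist1h2bc* (0.85), *Cltb* (0.85) and *Pura* (0.83), for *Klf6* with *Ifi27* (0.83), *Abhd16a* (0.82) and *Myl6* (0.82), and for *Klf7* with *Ptpn12* (0.82), *4931406P16Rik* (0.80) and *Tnfaip8l1* (0.78). For *Klf4* they were *Cpne8* (0.78), *Rps27* (0.77) and *Smarcd2* (0.73), and for *Klf3* *Stx3* (0.77), *Tmem238* (0.77) and *Sppl2a* (0.76). Among the members, the pair most alike was *Klf9* and *Klf13* at 0.57, and the pair most opposed *Klf5* and *Klf7* at -0.51. The summed dissociation list correlated with *Klf9* at 0.65, *Klf6* at 0.63 and *Klf13* at 0.45, and with *Klf7* at -0.04.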

How the data were processed

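Single-cell RNA-seq libraries of back skin, 1 per stage, were aligned to mm10 and counted with Cell Ranger 2.2.0 per the submitters' processing notes. The authors' Seurat filters required 3 cells per gene and 1750 genes per cell, and the authors deposited the natural log of 1 plus UMIs per 10000 in each cell. Inverting this scale gave whole UMIs for 100% of the 48197283 values above 0 (tolerance 0.001). The study states 15086 cells and the table holds 16235, all with at least 1750 genes.

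Clustering was run per library with scanpy 1.11.5 (2000 variable genes, 30 components, 15 neighbours, Leiden resolution 1 with leidenalg 0.10.2) without Klf, Sp or listed genes. Clusters were named from fixed markers, with at least 3 markers at a log2 difference of 1 or more over the 25th percentile of the clusters. Scrublet called 0, 84 and 106 doublets, so it did not work at E13.5, and called cells were kept.

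UMIs were summed per group and given as CPM with exact Poisson intervals. Differences are log2 of CPM + 10 with conditional binomial intervals, for genes with at least 50 UMIs. They were also run on simulated Poisson counts, the model that the intervals assume. Those counts held no variation between cells or libraries, so they check the calculation and not the fit of the intervals to these data. No p-value can be had from 1 library per stage. Capture and annotation of the 3' end differ between genes, so levels are compared within a gene.

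All 8 members were named in every group, with the 3 genes most correlated with each and up to 4 genes per fixed list and comparison. The lists were other Klf and Sp genes, corepressor partners, keratinocyte late differentiation, endothelial quiescence and flow response, glucocorticoid response, adipogenic factors and dissociation response. The members and lists were chosen with earlier results of these data known. Of 11 alternatives, 2 were chosen after seeing the data, as were the suprabasal comparisons at E13.5 and E16.5, matrix against basal, and the Schwann and pericyte comparisons.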

Additional observations from a re-analysis of the deposited data

How the results depend on the processing

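No paired analysis was possible because each stage is 1 library without replicates, so no replicate could be left out either. Under 11 alternatives, 246 of 281 counts of called members stayed within 1.5 times the reported count and 35 moved. Of the 63 calls, 42 stayed past the threshold and 62 kept their direction under every alternative that could be run. The 1 reversal was *Klf6* in E16.5 suprabasal against other epithelial cells, at -0.82 under Leiden resolution 2. The cause was not tested for any of these.

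The counts that moved are grouped by setting. At resolution 0.5 DP against other dermal cells at P0 gave 1. At resolution 2 suprabasal against other epithelial cells at E16.5 gave 0 and endothelial E16.5 against E13.5 gave 2. With at least 2500 genes per cell Schwann against dermal at E13.5 gave 4 and DP at P0 gave 2. With called doublets left out pericyte against dermal at E16.5 gave 2, DP at P0 gave 1 and endothelial E16.5 against E13.5 gave 2. With the same weight for each cell suprabasal against basal at P0 gave 1 and pericyte at E16.5 gave 2. With 1 added to each CPM epithelial against dermal at E13.5 gave 5, endothelial against dermal at E16.5 gave 5, Schwann at E13.5 gave 4, pericyte at E16.5 gave 2, DP at P0 gave 1 and endothelial E16.5 against E13.5 gave 2. With cells thinned to 3500 UMIs endothelial against dermal at E16.5 gave 5, suprabasal against basal gave 1 at P0 and 0 at E13.5, pericyte at E16.5 gave 2 and DP at P0 gave 1. With cells at or below the median dissociation share epithelial against dermal gave 5 at E13.5 and 4 at P0, immune against dermal at P0 gave 4, suprabasal against other epithelial at E16.5 gave 1, matrix against basal gave 3, Schwann at E13.5 gave 2, pericyte gave 2 at E16.5 and 1 at P0, and endothelial E16.5 against E13.5 gave 0. With mixed clusters kept immune against dermal at E13.5 gave 1, suprabasal against basal at E13.5 gave 1, DP at P0 gave 1 and endothelial E16.5 against E13.5 gave 2. With clusters led by another class left out DP at P0 gave 1. With no UMI minimum no count moved. Suprabasal comparisons were not run where the group was not found or had under 20 cells, under 1 alternative at P0, 3 at E16.5 and 1 at E13.5.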
